A study of Homo sapiens with 22 samples.

Results

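The 10 CXC chemokine genes CXCL1, CXCL2, CXCL3, CXCL5, CXCL6, CXCL8, CXCL10, CXCL16, PPBP and PF4 were followed through lists of H3K4me3, RNA polymerase II (Pol II) and QKI5-bound RNA sites in THP-1 cells. They were taken by name from the 20037 protein-coding genes of a RefSeq table on chromosomes 1 to 22, X and Y, and 10 of 10 were found. For each gene, ChIP peaks within 1 kb of either gene end (gene-end peaks) and within 20 kb around the gene were read. QKI5 CLIP rows were taken by gene symbol.

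THP-1 is a human monocytic leukaemia line. Control cells had received a lentivirus with the sh-control sequence, although the design text of the series calls them untreated. Knockdown cells had received a lentivirus with sh-QKI5, which targets the nuclear form of the RNA-binding protein QKI. Each of the 4 ChIP lists and both CLIP lists pools 2 replicates. No value below therefore has a replicate error, and no test between conditions was possible. The labels name no differentiating or inflammatory agent and do not say whether the infected cells were clonal. The marker genes CD14, CD33, SPI1, CEBPA and LYZ carried both marks at a gene end in both conditions. CSF1R, another monocyte marker, had no H3K4me3 peak within 1 kb of a gene end. Its Pol II gene-end peak, 755 bp wide, was in knockdown alone. Peaks further inside the marker genes were not counted. The depth of the libraries is unknown, and neither QKI5 levels nor chemokine RNA levels are in the lists.

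CXC chemokines are small secreted proteins that guide leukocytes through G protein-coupled receptors. CXCL1, CXCL2, CXCL3, CXCL5, CXCL6, CXCL8 and PPBP carry a Glu-Leu-Arg (ELR) motif before their paired cysteines and attract neutrophils, mainly through CXCR2. CXCL10 is induced by interferon and attracts T cells through CXCR3, CXCL16 is made as a membrane-anchored ligand of CXCR6, and PF4 is stored in platelet granules. Several ELR genes are known in monocytes as fast targets of NF-kappaB, which binds a short promoter element close to the start. H3K4me3 is the histone mark of active and poised promoters, and a Pol II peak shows polymerase on the DNA.

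The promoters are shown first, because the peaks lie on them and because several are near copies of each other. RefSeq sequences (GRCh38.p14) were matched for 8 of the 10 genes, all but CXCL16 and PF4. The 5 cluster genes with a peak at the start are shown, with CXCL5 and PPBP, which had none, for comparison. The 120 bases before the annotated start are printed 5′ to 3′ on the strand of the gene. Capitals mark GGAATTTCC, a core of the NF-kappaB element, and ATAAA between bases 40 and 20 before the start, where a TATA-type element lies.

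CXCL1 (chr4:73869273-73869392, plus strand): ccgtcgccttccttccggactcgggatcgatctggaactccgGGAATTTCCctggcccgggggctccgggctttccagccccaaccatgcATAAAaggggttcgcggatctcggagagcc
CXCL2 (chr4:74099196-74099315, minus strand): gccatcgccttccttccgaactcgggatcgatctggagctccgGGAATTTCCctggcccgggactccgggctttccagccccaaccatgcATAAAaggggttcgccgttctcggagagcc
CXCL3 (chr4:74038690-74038809, minus strand): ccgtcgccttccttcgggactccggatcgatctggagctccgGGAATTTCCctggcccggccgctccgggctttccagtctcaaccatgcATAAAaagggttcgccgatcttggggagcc
CXCL6 (chr4:73836558-73836677, plus strand): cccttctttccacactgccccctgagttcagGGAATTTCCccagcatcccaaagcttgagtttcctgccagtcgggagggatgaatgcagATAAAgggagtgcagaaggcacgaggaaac
CXCL5 (chr4:73998678-73998797, minus strand): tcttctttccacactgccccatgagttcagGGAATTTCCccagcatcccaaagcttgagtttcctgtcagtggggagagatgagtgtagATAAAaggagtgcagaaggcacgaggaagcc
CXCL8 (chr4:73740449-73740568, plus strand): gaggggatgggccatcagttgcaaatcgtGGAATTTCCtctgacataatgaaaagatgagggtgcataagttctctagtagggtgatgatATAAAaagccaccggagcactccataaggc
PPBP (chr4:73988191-73988310, minus strand): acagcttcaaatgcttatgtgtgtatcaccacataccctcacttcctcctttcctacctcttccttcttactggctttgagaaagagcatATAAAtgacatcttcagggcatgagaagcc

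GGAATTTCC was found on the gene strand within 91 bases of the start in 6 of the 7 ELR genes, from bases 77 to 69 before the start in CXCL2 to bases 91 to 83 in CXCL8. PPBP had no match on either strand of its 250 upstream bases. CXCL10 had the reverse complement, GGAAATTCC, at bases 176 to 168 before its start. Of 15843 protein-coding genes with a sequence in the table, 75 had GGAATTTCC or its reverse complement in those 250 bases, 0.473%. ATAAA stood in the window near the start in 8 of 8 chemokine promoters and in 7.21% of the genes. A match describes the letters only and is no measurement of a bound factor.

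The upstream 250 bases fell into 2 families of close copies. CXCL1 and CXCL3 were 81.4% identical, CXCL2 and CXCL3 73.4%, and CXCL1 and CXCL2 70.1%, with unbroken identical stretches of 25, 37 and 42 bases. CXCL5 and CXCL6 were 85.3% identical, with a stretch of 45 bases. The other 24 pairs were between 41.9% and 54.3% identical, with no shared stretch over 12 bases. How reads that fit several of these genes were assigned is not given in the sources used here, and their part in the peaks described below was not tested.

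H3K4me3 lay at a gene end in both conditions at 6 of the 10 genes, CXCL1, CXCL2, CXCL3, CXCL6, CXCL8 and CXCL16. Of all protein-coding genes 66.6% had the mark in both lists, so this share is near that of genes at large. None of the 10 had H3K4me3 in a single list, where all genes gave 0.554% for control alone and 0.779% for knockdown alone. By role, 5 of the 7 ELR genes and 1 of the other 3 carried the mark. Pol II was rarer, with CXCL2 in both lists, CXCL3 and CXCL16 in knockdown alone, no gene in control alone, and 7 genes in neither. Over all genes, Pol II was in both lists at 57.6%, in the control list only at 1.91% and in the knockdown list only at 3.97%.

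**Figure D1:**
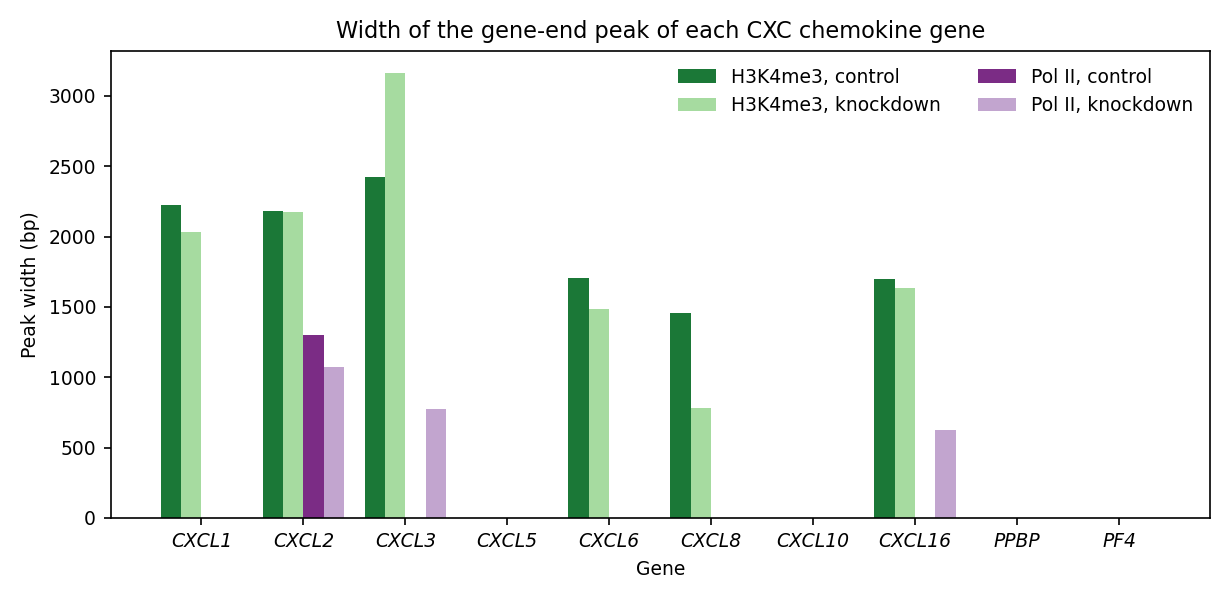
Width in bp (vertical axis) of the gene-end peak of each CXC chemokine gene in the 4 ChIP lists, with no bar where a list holds none; each bar is 1 pooled list and so has no error bar. Green bars stand at 6 genes in both conditions, while purple Pol II bars stand at CXCL2 in both conditions and at CXCL3 and CXCL16 in knockdown alone. For CXCL16 the peak at the higher-coordinate gene end is drawn.

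Of the genes with H3K4me3 in both lists, 10.6% had no Pol II gene-end peak in either. CXCL1, CXCL6 and CXCL8, 3 of the 6 marked chemokine genes, were in that state. Another 2 of the 6, CXCL3 and CXCL16, had Pol II in knockdown alone, against 4.31% of all genes with the mark in both lists. Neither of these shares is matched to genes of similar length or H3K4me3 width, and the marked chemokine genes are short with narrow peaks. No Pol II peak lay within 20 kb in either list at 7 of the 10 chemokine genes, CXCL1, CXCL5, CXCL6, CXCL8, CXCL10, PPBP and PF4. The share was 22.8% over all genes and 39.1% over genes no longer than CXCL16, the longest of the 10 with a span of 6396 bp. No H3K4me3 peak lay within 20 kb at CXCL5, PPBP and PF4, 3 of 10, against 18.1% of all genes, a share not matched for length. The 10 counts are not independent, since 8 of the genes lie in 1 cluster and several share promoter sequence.

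**Figure D2:**
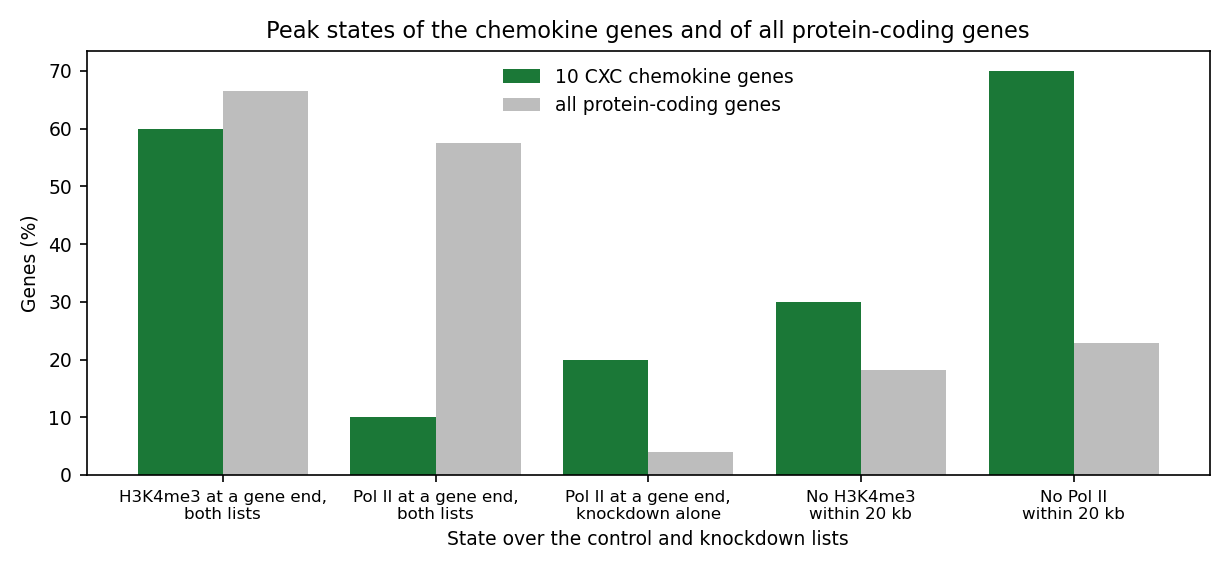
Share of genes in percent (vertical axis) in 5 states over the control and knockdown lists, for the 10 chemokine genes (green) and all 20037 protein-coding genes (grey). The bars for H3K4me3 in both lists are near each other, and the bars for no Pol II within 20 kb stand at 7 of 10 against 22.8%. Among genes no longer than CXCL16 the latter share was 39.1%, which is not drawn.

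The cluster on chromosome 4 runs, in coordinate order, through CXCL8, CXCL6, CXCL1, PF4, PPBP, CXCL5, CXCL3 and CXCL2 and spans 359 kb. It held 5 H3K4me3 peaks in control and 5 in knockdown, which covered 2.77% and 2.67% of the span with 1 kb added on either side. It held 1 Pol II peak in control and 2 in knockdown, which covered 0.361% and 0.512% of the same stretch. Each of these peaks lay at an end of 1 of the 8 genes, and the stretches between the genes held none. The nearest Pol II peak to CXCL8 was 354939 bp away in control and 294690 bp in knockdown. For CXCL6 these distances were 259895 and 199646 bp, and for CXCL1 they were 227347 and 167098 bp.

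**Figure D3:**
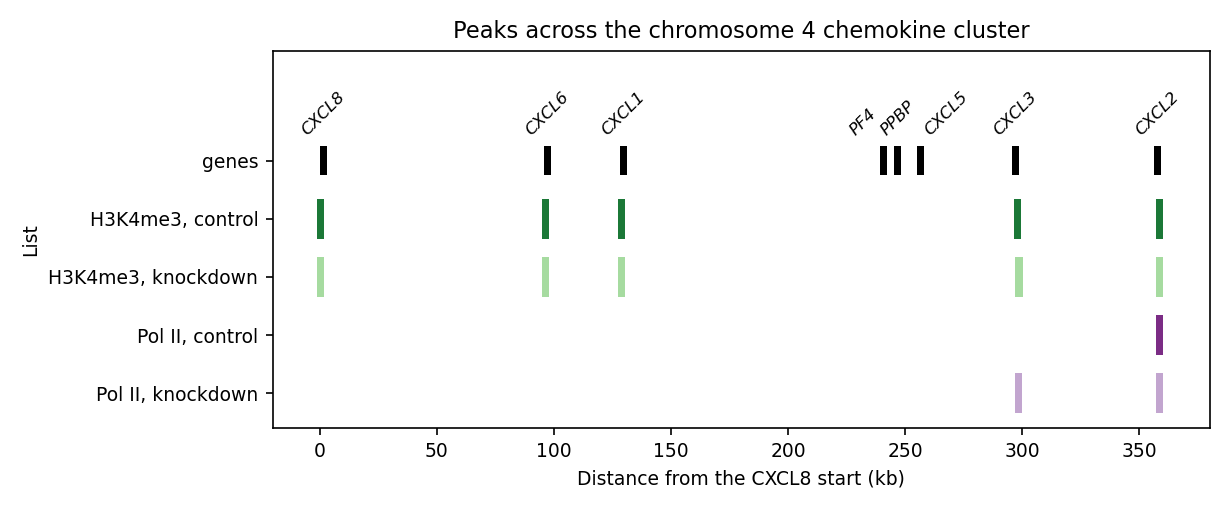
Map of the chromosome 4 chemokine cluster, with the distance from the CXCL8 start in kb (horizontal axis), the 8 genes in black and 1 row for each ChIP list; genes and peaks are drawn at least 3 kb wide so that they can be seen. H3K4me3 stands at CXCL8, CXCL6, CXCL1, CXCL3 and CXCL2 in both conditions, and nothing stands at PF4, PPBP and CXCL5. The CXCL3 Pol II peak is in the knockdown row alone.

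CXCL2, a neutrophil chemokine made by activated monocytes, was the gene of the 10 that had both marks in both conditions. Seen from its start, the H3K4me3 peak of 2179 bp ran from 840 bp upstream to 1338 bp downstream in control. The knockdown peak of 2174 bp ran from 887 bp upstream to 1286 bp downstream. The peaks shared 2127 bp, 97.6% of the control peak. Pol II reached from 762 bp upstream to 540 bp downstream in control and from 513 bp upstream to 559 bp downstream in knockdown. Its width went from 1303 to 1073 bp, a ratio of 0.823, where the median gene with Pol II in both lists had 1.05 and the middle 50% of genes lay between 0.851 and 1.35. The Pol II edge upstream of CXCL2 thus stood 249 bp nearer to the gene in knockdown, and the edge inside the gene moved by 19 bp.

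CXCL3, whose promoter was the nearest to that of CXCL1 among the 8 compared, had H3K4me3 in both lists and Pol II in knockdown alone. In control the H3K4me3 peak was 2427 bp wide, on chromosome 4 from 74037347 to 74039773 (GRCh38.p5), and in knockdown 3163 bp wide, from 74037503 to 74040665. It reached 1084 bp upstream of the start in control and 1976 bp in knockdown, while its edge inside the gene drew back by 156 bp. The ratio of the widths was 1.30, and 4.88% of the 13350 genes with the mark in both lists had a ratio as high or higher. Of genes with an H3K4me3 gene-end peak in control, 15.8% had one as narrow or narrower. A shift of the same length changes the ratio of a narrow peak more than that of a wide one. The knockdown Pol II peak spanned 74038406 to 74039179, 774 bp, from 490 bp upstream to 283 bp downstream of the start, and so covered the printed promoter. The nearest control Pol II peak was 59966 bp from CXCL3, at CXCL2. Over the whole lists, at gene ends or elsewhere, narrow Pol II peaks were often in a single list. Of 7875 knockdown Pol II peaks wider than 501 bp and up to 1000 bp, 41.8% overlapped a control peak. Of 7700 such control peaks, 51.9% overlapped a knockdown peak. The knockdown Pol II list is also the longer of the pair, with 35094 peaks against 33370.

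CXCL1, whose product was first known as a growth factor of melanoma cells, had H3K4me3 alone. The control peak was 2225 bp wide, from 73868469 to 73870693, and the knockdown peak 2030 bp wide, from 73868486 to 73870515, a ratio of 0.912. Measured from the start, it ran from 924 bp upstream to 1300 bp downstream in control and from 907 bp upstream to 1122 bp downstream in knockdown. CXCL1, CXCL2 and CXCL3, with their shared promoter sequence, thus carried H3K4me3 peaks of 2179 to 2427 bp in control, and in the Pol II lists each stood in a different state.

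CXCL6, a chemokine of the same receptors as CXCL8, also had H3K4me3 alone. The control peak measured 1704 bp, from 73836096 to 73837799, and the knockdown peak 1486 bp, from 73836130 to 73837615, a ratio of 0.872. The knockdown peak lay wholly inside the control peak. CXCL5, with a promoter 85.3% identical to that of CXCL6 and the same GGAATTTCC match, had no peak of either mark within 20 kb. The nearest H3K4me3 peaks to CXCL5 were 38670 bp away in control and 38826 bp in knockdown, and both are the peaks of CXCL3.

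CXCL8 encodes interleukin-8, the main neutrophil attractant of human monocytes. H3K4me3 extended over 1459 bp in control, from 73740365 to 73741823, and over 782 bp in knockdown, from 73740568 to 73741349. The knockdown peak lay wholly inside the control peak and covered 53.6% of it. In control it began 204 bp upstream of the start and took in the GGAATTTCC match, whereas in knockdown it began 1 bp upstream, at the last base of the printed promoter. The edge inside the gene stood at 1254 bp in control and at 780 bp in knockdown. The ratio of the widths was 0.536, and 0.787% of genes with the mark in both lists had a ratio as low or lower. The CXCL8 peak was also the narrowest of the 6 H3K4me3 gene-end peaks in either condition. Of genes with such a peak, 4.84% in control and 1.44% in knockdown had one as narrow or narrower. The median width over genes with such a peak in control was 3871 bp, and a shift of the same length changes the ratio of a wide peak less. No share among genes with similarly narrow peaks is given here. No Pol II peak was listed at CXCL8 in either condition.

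**Figure D4:**
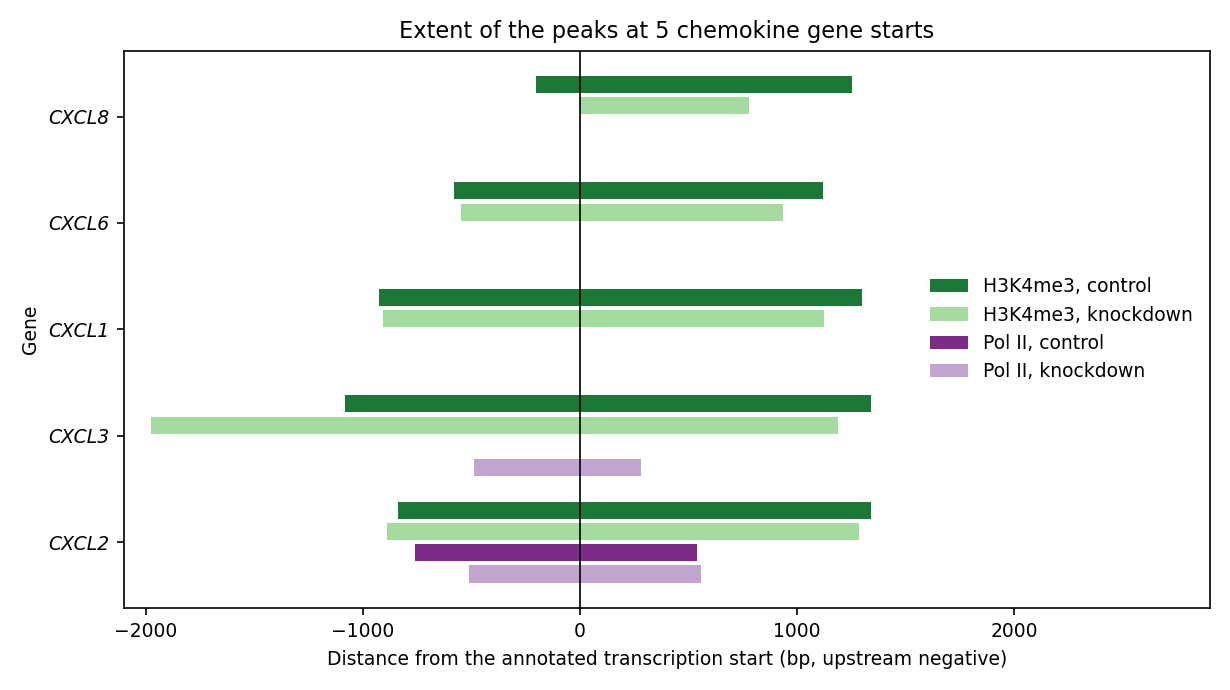
Extent of the gene-end peaks at 5 chemokine genes in each list, as distance in bp from the annotated transcription start (horizontal axis, upstream negative, black line at the start), with genes on the vertical axis. The knockdown H3K4me3 bar of CXCL8 begins at the start and ends at 780 bp, and that of CXCL3 reaches 1976 bp upstream. Only CXCL2 and CXCL3 among these 5 have Pol II bars.

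PPBP and PF4, both known from platelet granules, had no peak of either mark within 20 kb in either condition. Their nearest H3K4me3 peaks were 49157 and 55223 bp away in control. ITGA2B, a platelet marker, had neither mark at a gene end, and GP9, another, had an H3K4me3 gene-end peak of 803 bp in control alone.

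CXCL10, the interferon-induced ligand of CXCR3, had no gene-end peak in any of the 4 lists. The nearest H3K4me3 peak lay upstream of it, between CXCL10 and CXCL11, 892 bp wide in control, from 76028183 to 76029074, and 501 bp wide in knockdown, from 76028503 to 76029003. These peaks overlap, and their near edges stood 4686 and 5006 bp from the CXCL10 start. In each of the 4 ChIP lists 501 bp was both the narrowest and the commonest width. A second H3K4me3 peak, 982 bp wide in control and 1193 bp wide in knockdown, lay at an end of ART3, a neighbouring gene that spans CXCL10. The nearest Pol II peaks were 29688 bp away in control and 29489 bp in knockdown.

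CXCL16 lies apart from the others, on chromosome 17, and shares a gene-end peak with its neighbour ZMYND15. There H3K4me3 extended over 1695 bp in control, from 4738766 to 4740460, and over 1635 bp in knockdown, from 4738694 to 4740328, a ratio of 0.965. Pol II was listed there in knockdown alone, at 4739363 to 4739988, 626 bp, and since the peak is also at an end of ZMYND15 it cannot be given to CXCL16 alone. At the other end of CXCL16 lies the gene MED11, whose H3K4me3 peak measured 2550 bp in control and 2267 bp in knockdown. This peak shows how the 1 kb limit acts, since its edge was 1092 bp from CXCL16 in control and 885 bp in knockdown, just outside and just inside the limit. MED11 also had Pol II in both lists, 892 and 1070 bp wide, at 1459 and 1512 bp from CXCL16. With a limit of 5 kb the MED11 peaks count for CXCL16, which then has Pol II in both lists and is no longer a gene with Pol II in knockdown alone.

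Across the 6 marked genes, H3K4me3 was narrower in knockdown at CXCL1, CXCL2, CXCL6 and CXCL8 when the widest gene-end peak was taken. All genes with the mark in both lists gave 57.8% narrower in knockdown, with a median ratio of 0.974 and the middle 50% between 0.886 and 1.07. CXCL16 counted as wider only because the MED11 peak entered the 1 kb limit, and with overlapping peaks compared it was narrower too. CXCL3 was then the single marked gene with a wider peak. The ratios of CXCL1, CXCL2, CXCL16 and CXCL3 to the control width, with overlapping peaks compared, were 0.912, 0.998, 0.965 and 1.30. With overlapping peaks compared, CXCL8, CXCL3 and CXCL6 lay outside the middle 50% of genes, with CXCL6, at 0.872, just below its lower bound. The bounds themselves come from the widest gene-end peak of each gene. By that measure CXCL16 had a ratio of 1.34 and also lay outside, and 4.07% of genes had a ratio as high or higher.

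**Figure D5:**
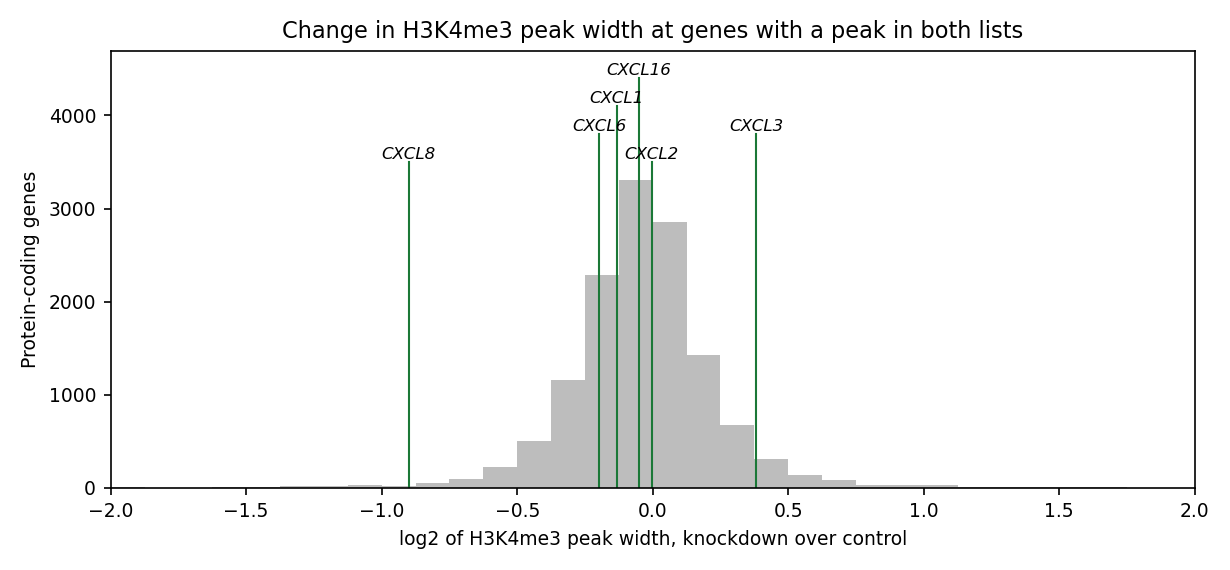
Histogram of protein-coding genes (vertical axis, number of genes) by the log2 ratio of H3K4me3 peak width in knockdown over control (horizontal axis, drawn from -2 to 2), with green lines at the 6 marked chemokine genes, for which the overlapping peaks were compared. The histogram itself uses the widest gene-end peak of each gene, by which the ratio of CXCL16 would be 1.34 before the log. CXCL8 stands at -0.90 in the left tail of the distribution, CXCL3 at 0.38, and the other 4 within its bulk.

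Within 20 kb of the 10 genes the lists held 9 H3K4me3 peaks in control and 11 in knockdown, and 9 of each overlapped a peak of the other condition. Over the whole lists 88.0% of control and 90.8% of knockdown H3K4me3 peaks did so. The 2 knockdown peaks without a counterpart were a 637 bp peak at CXCL9 and a 501 bp peak near CXCL16. Of the H3K4me3 peaks wider than 501 bp and up to 1000 bp, 65.6% in control and 70.1% in knockdown overlapped the other list. Pol II peaks numbered 2 in control and 5 in knockdown, with 2 of each shared, against 63.3% of control and 59.4% of knockdown Pol II peaks over the whole lists. The 3 knockdown Pol II peaks without a counterpart were those at CXCL3 and at the shared end of CXCL16 and ZMYND15, and a 939 bp peak at an end of ARRB2, which encodes an arrestin that binds activated chemokine receptors. All 3 were between 501 and 1000 bp wide, the class in which 41.8% of knockdown Pol II peaks overlapped a control peak. That class counts peaks anywhere in the genome, whereas these 3 lay at gene ends. By gene, Pol II at a gene end in knockdown alone, as at CXCL3 and CXCL16, was found at 4.31% of genes with H3K4me3 in both lists. ARRB2 was not among those genes. This share counts genes with or without a Pol II peak, so it cannot be set against the share of peaks.

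No row of the QKI5 CLIP lists carried the symbol of any of the 10 genes, or an older symbol of one, among 7337 control and 669 knockdown rows. None lay inside the span of any of the 10 genes either. Over all protein-coding genes, 13.2% had a row by symbol in control and 1.75% in knockdown. These genes are short, and among the 3992 genes no longer than CXCL16 the control share was 2.83%. An absent row says that no site passed the thresholds of the list, and RNA levels of these genes were not measured here. The one CLIP row within 20 kb of a chemokine gene was in ARRB2, on chromosome 17 at 4714120 to 4714169 on the plus strand, in control alone. It had 10 reads, a -log10 p of 11.1 and a log2 enrichment of 7.25 by the authors' values, and lay 19364 bp from CXCL16.

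The other genes of the CXC system were taken from family membership. Of 7 other ligands, CXCL12, a stromal chemokine, had H3K4me3 in both lists, 1866 and 1680 bp, CXCL14 had it in control alone, 501 bp, and CXCL9, like CXCL10 induced by interferon, in knockdown alone, 637 bp. None of these 7 had a Pol II gene-end peak. Of 8 receptors, CXCR2 and CXCR4 had both marks at a gene end in both lists and the other 6 had neither there. CXCR2, the receptor of the ELR chemokines, measured 2975 bp (control) and 3348 bp (knockdown) in H3K4me3 and 1195 and 1964 bp in Pol II. CXCR4, the receptor of CXCL12, had H3K4me3 peaks of 6503 and 5701 bp and Pol II peaks of 3425 and 7697 bp. ADAM10 and ADAM17, proteases that shed CXCL16 from the membrane, had both marks in both lists. ADAM10 was the single gene of these 17 with CLIP rows, 2 adjoining ones in control, 5 and 18 bp wide. Both rows carry the same values, 9 reads and a log2 enrichment of 7.09, so they are not shown to be separate sites.

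Genes with the same presence of gene-end peaks in 4 of 4 ChIP lists were sought among the protein-coding genes within 1 Mb of each chemokine gene. For CXCL1 and CXCL6 the state of H3K4me3 in both lists without Pol II, which 7.05% of all genes had, was shared by BTC, which encodes a ligand of the EGF receptor, and by CXCL8. CXCL2, with both marks in both lists like 55.6% of genes, shared its state with AREG, another EGF receptor ligand, and with ANKRD17. CXCL5, PPBP and PF4 shared the absence of both marks from the gene ends, found at 28.6% of genes, with AFM, AFP, ALB, EPGN, EREG, MTHFD2L, PF4V1 and RASSF6. The state of CXCL3, held by 2.87% of genes, was found at none of its 20 neighbours, and CXCL16 shared it with ZMYND15, through the peak they have in common, and with the inflammasome gene NLRP1. For CXCL10 the genes that likewise had neither mark at a gene end were CDKL2, CXCL11, ODAPH, PPEF2, SCARB2, SHROOM3 and LOC124900866. With a limit of 5 kb, CXCL11 had H3K4me3 in both lists.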

How the data were processed

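The series holds 22 samples in 10 groups, and the authors deposited 6 peak lists that each combine the 2 replicates, per the design text of the series, which calls the control cells untreated. HOMER and GRCh38.p5 appear in the submitters' processing notes, with no step named. There are 2 ChIP inputs for control and 4 for knockdown. Which aligner and caller settings were used, and how inputs entered, is not given in the sources used here. In the deposited ChIP lists the score is 1 at every peak and ranks nothing, so peaks are described by position and width. The deposited CLIP columns, which have no header, were read from their values as -log10 p and log2 enrichment.

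Gene spans were taken from the RefSeq annotation of GRCh38.p14 and used for neighbourhood only. Patch releases keep the coordinates of the primary chromosomes. Starts and strands came from the RefSeq promoter table. A peak counted as shared when it overlapped a peak of the other condition by at least 1 bp. Width ratios and shares over all genes used the widest gene-end peak of each gene. Promoters were aligned globally with Biopython 1.88 (match 1, mismatch -1, gap opening -2, gap extension -0.5), and identity is over all alignment columns. Analyses ran in Python 3.11.15 with pandas 2.3.3, and the overlap code was tested on planted peaks. The genes and lists were chosen with earlier results of these data known. The named genes are the 10 members, the other CXC system genes with a peak, genes with a gene-end peak that lies within 20 kb of a member, genes within 1 Mb with the same presence in the lists, and cell type markers from a list. Alternatives were gene-end limits of 500 bp and 5 kb, windows of 10 and 50 kb, peaks wider than the narrowest width, at least 50% overlap, summed widths, a -log10 p over 10 and CLIP rows by position.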

Additional observations from a re-analysis of the deposited data

How the results depend on the processing

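With a 5 kb limit for gene-end peaks, CXCL10 became a gene with H3K4me3 in control alone (1 of the 10 genes), since its upstream peak stood just inside 5 kb in control and just outside in knockdown. Pol II was then in both lists at 2 genes and in knockdown alone at 1, because CXCL16 took the MED11 peaks. Of the other CXC system genes, 8 then had H3K4me3 in both lists, 0 in knockdown alone, and 1 had Pol II in control alone. Windows of 50 kb held 14 H3K4me3 peaks in control and, for Pol II, 8 in control and 11 in knockdown. The H3K4me3 difference of CXCL16, knockdown minus control, was 572 bp by the widest gene-end peak. It was 2207 bp by summed width, -283 bp with the 5 kb limit and -60 bp between overlapping peaks, a comparison added after the data were seen. The other 59 of 71 recalculated values stayed equal or within 1.5 times. No paired analysis was possible because each deposited list pools both replicates, and for the same reason no replicate could be left out. Library depth is unknown, so whether an absent peak is absence or too few reads was not tested.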

Other observations

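The knockdown H3K4me3 peak of CXCL3 reached further on its upstream side, over the long non-coding gene LOC105377275. The peak covered 829 bp of that gene in control and 1721 bp in knockdown, of a span of 3678 bp. The gene was looked at after the width of the peak was seen, and the lists do not say to which of the neighbouring genes the added stretch belongs.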
